A study of Bombyx mori with 3 samples.

Results

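In RNA from the brains of silkworm larvae (Bombyx mori), 45 of the 17072 genes in the deposited count table stood well above the other libraries in 1 library of 3, replicate 3. All 3 libraries came from wild-type (WT) larvae of strain P50, reared on mulberry leaves and collected at instar 5, day 3, in the final larval stage. They form 1 group, the labels name no contrast, and nothing in them says whether the brains came from separate sets of animals. The 45 genes were picked by level: a mean count of at least 50 over the libraries, CPM (the count divided by the library total, times 1000000) in replicate 3 at least 2 times that in replicate 1 and in replicate 2, and CPM in replicate 1 at least 0.25 times that in replicate 2. All ratios of replicate 3 to the other libraries below are therefore a description of how the genes were chosen, and no test was made of them. Levels of nerve cell and glia markers are given further on. With no other tissue to compare, they do not test the tissue label.

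The larval brain lies in a space bathed by hemolymph, the insect blood, and a dissected brain can bring along hemocytes, cuticle-forming epidermis, muscle, tracheae and parts of the suboesophageal ganglion, the nerve centre just below the gut. Hemocytes carry the prophenoloxidases, enzyme precursors that are cut by a cascade of clip-domain serine proteases and then start the formation of melanin at wounds and on parasites. Epidermal cells secrete the cuticular proteins, and neurosecretory cells of the brain and of the suboesophageal ganglion each make their own peptide hormones. Since each library is a mixture of whole tissue, more cells of a type and more RNA per cell cannot be told apart.

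The libraries held 23895452 counts in replicate 3, 19843776 in replicate 1 and 17935488 in replicate 2. The mean count reached 50 in 9327 genes, and the 45 were 0.482% of these. Without the condition on replicate 1, 53 genes (0.568%) were at least 2 times higher in replicate 3 than in each other library, as against 2 genes (0.0214%) for replicate 1 and 102 (1.09%) for replicate 2. In the other direction, 7 genes (0.0751%) were at or below 0.5 times both others in replicate 3, 282 (3.02%) in replicate 1 and 4 (0.0429%) in replicate 2. Replicate 1 thus differed from the others mostly by genes at a low level, and replicates 2 and 3 by genes at a high level.

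The 45 genes were a small part of the RNA. They took 0.237% of the counts of replicate 3, against 0.0541% in replicate 1 and 0.0582% in replicate 2. The median of their levels was 22.9 TPM (a level per gene length, scaled to 1000000 per library) in replicate 3, against 3.31 TPM in replicate 1 and 4.47 TPM in replicate 2, where the 9327 genes had medians of 38.4, 36.9 and 37.8 TPM. All 45 reached 1 TPM in replicate 3 and 39 did so in every library. In replicate 3, 34 reached 10 TPM and 8 reached 100 TPM. The ratio of replicate 3 to the mean of replicates 1 and 2 had a median of 3.74 over the 45 genes and of 0.991 over the 9327.

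**Figure D1:**
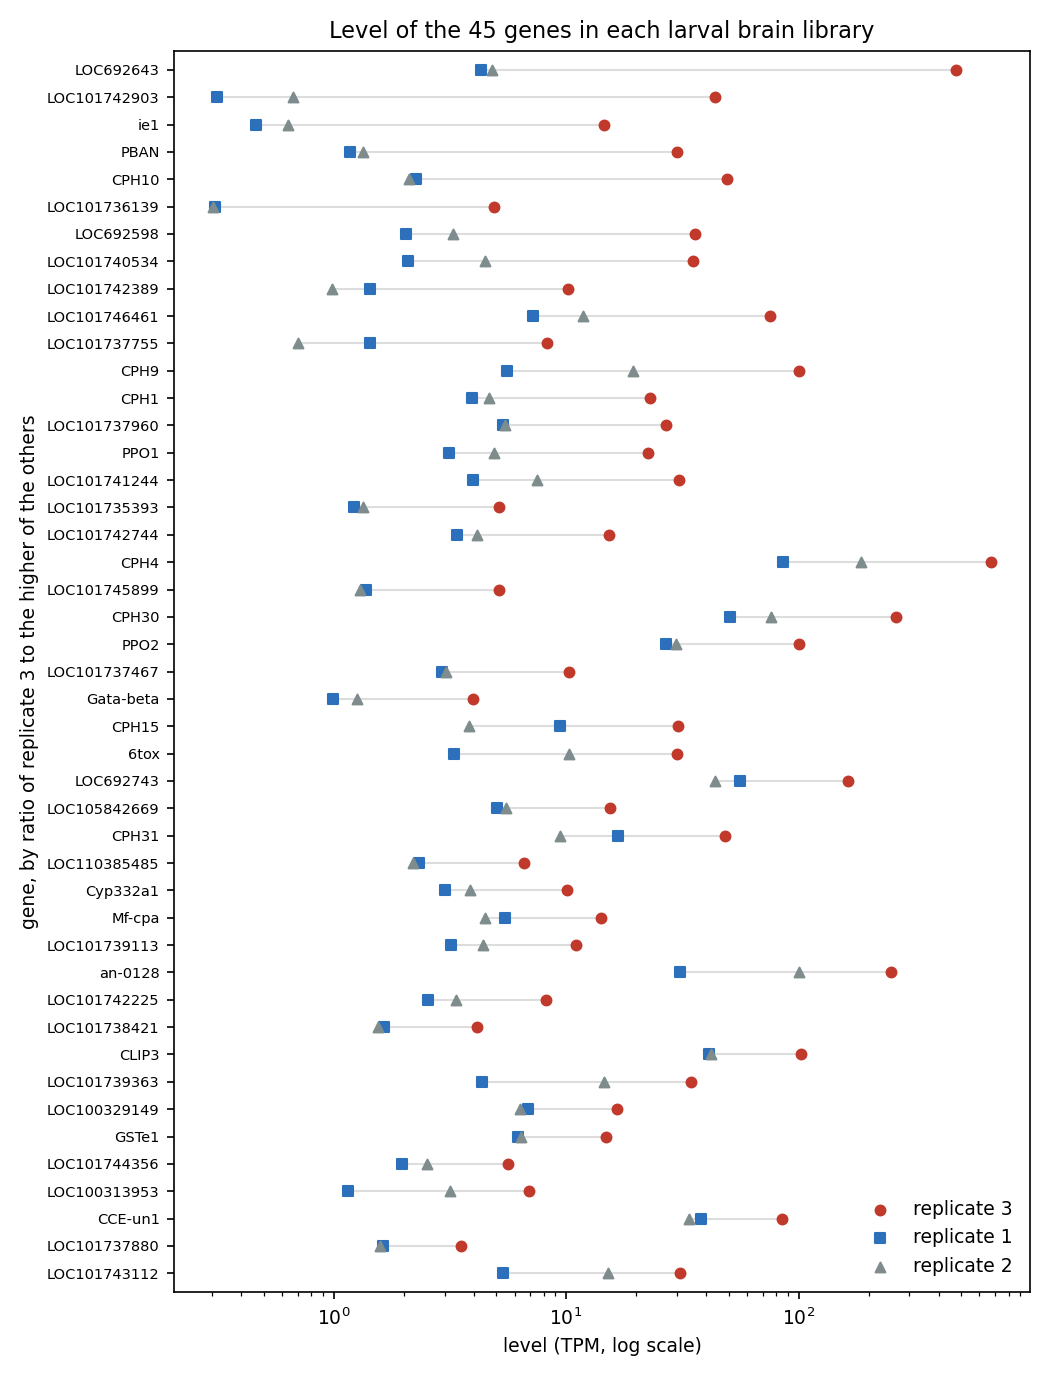
Level of each of the 45 genes in TPM on a log axis, with red circles for replicate 3, blue squares for replicate 1 and grey triangles for replicate 2, ordered by the ratio of replicate 3 to the higher of the other libraries. LOC692643 at the top reached 478 TPM in replicate 3 against 4.29 and 4.81 TPM in replicates 1 and 2, and the lowest genes lie near the 2-fold limit.

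The size of the gap varied widely. Against the higher of the other libraries, 5 genes were more than 20 times higher in replicate 3, 7 were 5 to 20 times higher, 13 were 3 to 5 times higher and 20 were 2 to 3 times higher. The largest ratios depend on the few counts in replicates 1 and 2: with 1 CPM added to every value, the ratio to the mean of the others was 8.18 for PBAN in place of 23.2, 8.24 for CPH10 in place of 21.95, 10.2 for ie1 in place of 25.8, and 31.1 for LOC101742903 in place of 87.0. For 32 of the 45 the exact (Clopper-Pearson) 95% interval of the ratio stayed at or above 2 against both libraries, and for 13 its lower end fell under 2 against at least 1 of them. These intervals cover counting error only. They come from the counts that chose the genes, so they are a description and no test of the 45. In 19 of the 45 the mean count of replicates 1 and 2 was under 50, so these genes passed the limit on counts through replicate 3. The genes closest inside the threshold were LOC101743112 (2.03 times the higher of the others), LOC101737880 (2.07 times) and CCE-un1 (2.14 times). Closest outside were the scavenger receptor gene Scr-c (1.98 times), LOC101737408 (1.98 times) and twi (1.97 times), which encodes a mesodermal transcription factor.

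**Figure D2:**
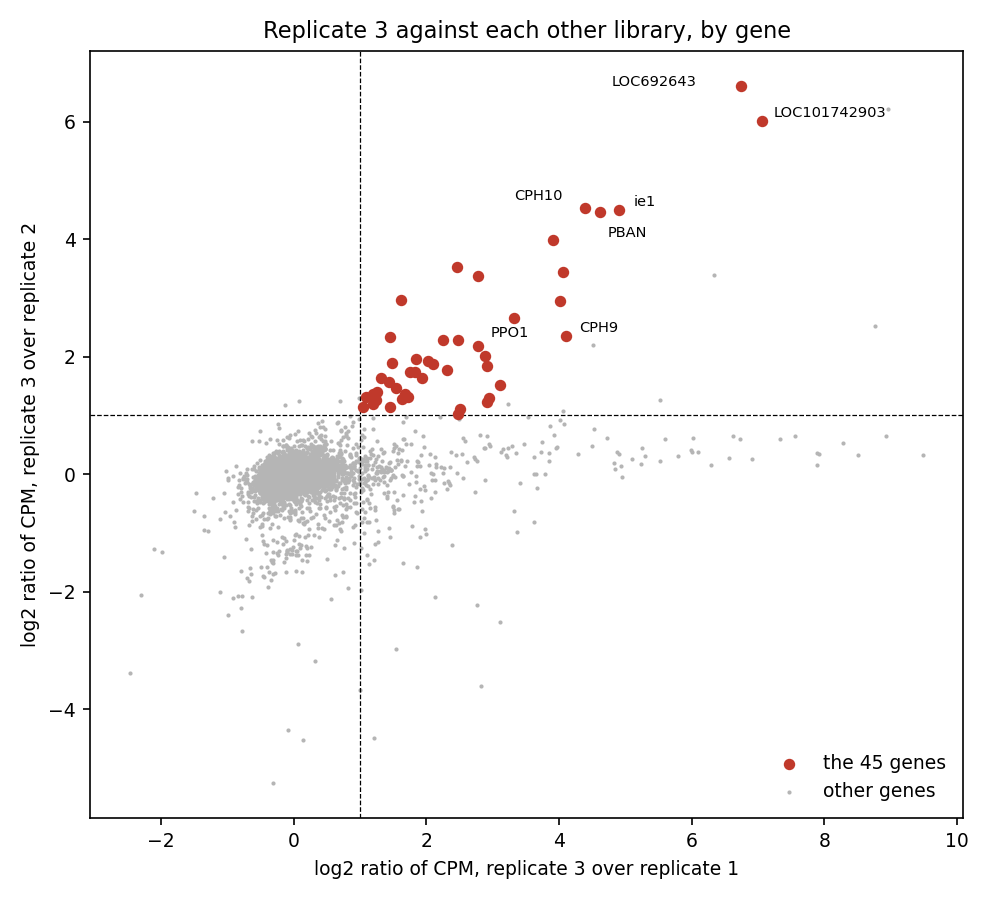
Log2 ratio of CPM in replicate 3 over replicate 1 on the horizontal axis and over replicate 2 on the vertical axis, with 1 point per gene, for 9320 genes with counts in every library. Dashed lines mark the 2-fold threshold, and red points are the 45 genes; grey points to the right along a vertical value near 0 are genes that were low in replicate 1 alone.

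LOC692643 and LOC101742903, which have no descriptive symbol in the reference, were farthest apart. LOC692643 had 7193 counts in replicate 3, against 56 in replicate 1 and 55 in replicate 2. Its CPM in replicate 3 was 107 times that in replicate 1 (95% counting interval 82.05 to 141) and 98.2 times that in replicate 2 (75.3 to 130.4). LOC101742903 had 1120 counts in replicate 3, against 7 in replicate 1 and 13 in replicate 2, or 43.6 TPM against 0.314 and 0.667 TPM. Replicates 1 and 2 lay close together for the first of these genes, and replicate 3 stood alone in both.

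Genes of hemocytes and of the melanization cascade formed 1 group among the 45. PPO2, a prophenoloxidase, was at 100.2 TPM in replicate 3, against 26.9 TPM in replicate 1 and 29.6 TPM in replicate 2. PPO1, the gene of the other prophenoloxidase, was at 22.6 TPM in replicate 3, against 3.14 and 4.90 TPM in replicates 1 and 2. The PPO1 ratio was 6.89 to replicate 1 (95% counting interval 5.95 to 8.02) and 4.56 to replicate 2 (4.01 to 5.20), and the PPO2 ratio was 3.57 (3.26 to 3.91) and 3.34 (3.05 to 3.66). PPO1 and PPO2 are related, and how far reads were shared between them is unknown. CLIP3, a clip-domain serine protease, was at 102 TPM in replicate 3, against 41.3 TPM in replicate 1 and 42.1 TPM in replicate 2. For PPO2 and CLIP3 replicates 1 and 2 were nearly level and replicate 3 was alone above them.

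The other 7 genes of the cascade that passed the limit on counts were at most 1.31 times replicate 2. Of 11 matched genes, a list chosen after their values were seen, 10 passed the limit on counts. Of these 3 were among the 45, beside 0.482% of all 9327 genes, and 8 were highest in replicate 3, as were 27.6% of the 9327; nothing is read from these counts, since the list was chosen on these values. PPAE, the protease that activates prophenoloxidase, was at 155 TPM in replicate 3, against 11.7 TPM in replicate 1 and 153 TPM in replicate 2, so only replicate 1 was apart. CLIP11 was at 157 TPM in replicate 3, against 48.9 and 133 TPM in replicates 1 and 2. BAEE and CLIP4, both serine proteases, had ratios of 1.02 and 0.958 to replicate 2, and the beta-glucan recognition genes BGRP1, BGRP2 and BGRP3 had ratios between 1.03 and 1.31 to it. The median ratio of replicate 3 to the mean of the others was 1.67 over the 10 genes, set against 0.991 over all 9327.

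The hemocyte markers as a list were few. Matched were PPO1, PPO2, NimB and Pp. Their summed level was 221 TPM in replicate 3, against 76.4 TPM in replicate 1 and 118 TPM in replicate 2, and includes PPO1 and PPO2, which were chosen for being high in replicate 3. Without these the sum is the level of NimB alone. NimB, a gene of the Nimrod family, was at 98.6 TPM in replicate 3, against 46.3 TPM in replicate 1 and 83.7 TPM in replicate 2. Its ratio to replicate 2 was 1.16, against 4.56 for PPO1 and 3.34 for PPO2. Pp, the gene of the paralytic peptide that acts on hemocytes, had 0 counts in every library, which allows up to 0.126 CPM in replicate 3, 0.151 CPM in replicate 1 and 0.167 CPM in replicate 2. The next genes were picked for lying just outside the threshold. Scr-c, a scavenger receptor gene whose relatives in Drosophila serve hemocytes, was at 16.4 TPM in replicate 3, against 7.94 TPM in replicate 1 and 6.59 TPM in replicate 2. Let-2, a gene of basement membrane collagen named here after its values were seen, was at 182 TPM in replicate 3, against 87.9 and 94.4 TPM in replicates 1 and 2. Of the hemocyte markers that the rule did not pick, NimB in replicate 3 was 2.04 times replicate 1 and 1.16 times replicate 2. Pp had no count and so cannot tell the libraries apart. The part of hemocytes in the result was not tested.

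Antimicrobial genes differed in how replicate 2 stood. Of the 4 genes of the immune list that passed the limit on counts 0 were among the 45, beside 0.482% of all genes. Their median ratio of replicate 3 to the mean of the others was 2.05 (1.37 to 11.4), set against 0.991 over all 9327. The lysozyme gene Lzm was at 71.6 TPM in replicate 3, against 1.81 TPM in replicate 1 and 52.1 TPM in replicate 2. The gloverin gene glv4-like met the 2-fold condition with 521 counts in replicate 3, against 1 in replicate 1 and 68 in replicate 2, and was kept out of the 45 by its low level in replicate 1. Attacin1, an antibacterial peptide gene under the limit on counts, had 50 counts in replicate 3, against 12 in replicate 1 and 14 in replicate 2, so it was higher than in both. The summed level of all 17 matched immune genes was 274 TPM in replicate 3, against 66.6 TPM in replicate 1 and 233 TPM in replicate 2. Among the 45, 6tox, a gene of the X-tox family of defensin-like immune proteins of moths, was at 29.9 TPM in replicate 3, against 3.31 TPM in replicate 1 and 10.3 TPM in replicate 2. The immune list does not hold 6tox, so the count of 0 above leaves it out.

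Cuticular protein genes of the CPH group were the most frequent named genes among the 45. CPH is the name for silkworm cuticular proteins outside the motif families, of which CPR, with its chitin-binding motif, is the largest. The 7 were CPH1, CPH4, CPH9, CPH10, CPH15, CPH30 and CPH31. CPH4 had the highest level of all 45 genes, at 672 TPM in replicate 3, against 85.6 TPM in replicate 1 and 185 TPM in replicate 2. CPH30 was at 263 TPM in replicate 3, against 50.6 TPM in replicate 1 and 76.1 TPM in replicate 2. CPH10 was at 49.3 TPM in replicate 3, against 2.26 TPM in replicate 1 and 2.11 TPM in replicate 2. The ratio to the higher of the others was 20.9 for CPH10, 5.10 for CPH9, 4.85 for CPH1, 3.59 for CPH4, 3.42 for CPH30, 3.08 for CPH15 and 2.75 for CPH31.

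Replicates 1 and 2 did not keep 1 order among these genes. CPH9 was 3.39 times and CPH4 2.09 times higher in replicate 2 than in replicate 1. CPH15 was 2.53 times and CPH31 1.85 times higher in replicate 1 than in replicate 2. CPH10 and CPH1 differed by less than 1.2 times between replicates 1 and 2.

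Whether replicate 3 was highest over cuticular genes depended on the list and, for CPH genes, on the unit. Of 34 matched CPH genes 15 passed the limit on counts and 11 of these were highest in replicate 3, as were 27.6% of all 9327 genes. The 7 among the 45 are 46.7% of the 15, beside 0.482% of all genes, and nothing is read from either count, since the rule used these values. The 8 of the 15 outside the 45 included CPH27, at 1410 TPM in replicate 3 against 559 TPM in replicate 1 and 3105 TPM in replicate 2, and CPH5, at 6.42 TPM against 3.08 and 81.3 TPM. The CPH genes summed to 3846 TPM in replicate 3, against 989.8 TPM in replicate 1 and 4215 TPM in replicate 2. In CPM, which does not divide by gene length, replicate 3 was highest. The sums were then 1035 CPM in replicate 3, 232 CPM in replicate 1 and 829 CPM in replicate 2. Both sums include the 7, which were chosen for being high in replicate 3. Of 135 matched CPR genes 30 passed the limit on counts and 0 were among the 45, which at 0.482% of all genes says little of so few. Their median ratio to the mean of the others was 0.958. The CPR genes summed to 2620.1 TPM in replicate 3, against 1248 TPM in replicate 1 and 4106 TPM in replicate 2. The remaining cuticle and epidermis genes also gave 0 of 15, with a median ratio of 1.17. Reads could be divided among similar CPH copies, and the extent of this is unknown; the part of epidermis in the result was not tested.

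**Figure D3:**
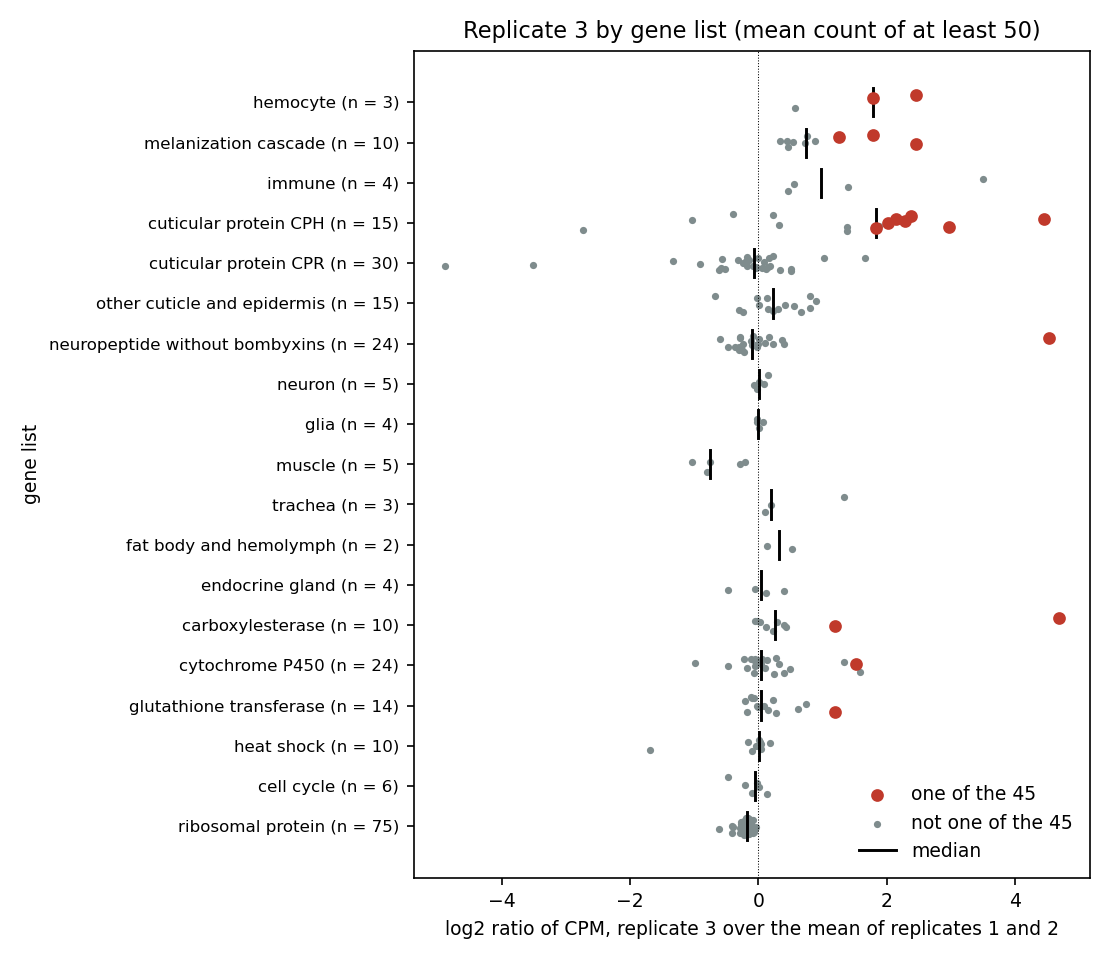
Log2 ratio of CPM in replicate 3 over the mean of replicates 1 and 2, with 1 point per gene that passed the limit on counts, for 19 gene lists. Red points are among the 45 genes, grey points are not, and black bars are list medians; the 7 red CPH genes lie to the right of the other cuticle lists, and PBAN stands alone among 24 neuropeptide genes.

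Mf-cpa, the gene of a carboxypeptidase of the molting fluid, which breaks down old cuticle, was at 14.1 TPM in replicate 3, against 5.44 TPM in replicate 1 and 4.48 TPM in replicate 2. Its ratio was 2.49 to replicate 1 (95% counting interval 1.94 to 3.22) and 3.12 to replicate 2 (2.36 to 4.19). Replicate 3 was above both others, and the lower end of the first interval lay under 2.

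Among CPH9, CPH10 and CPH15, the reference places CPH9 and CPH10 side by side and CPH15 close by. Within 10 protein-coding genes of CPH10 on either side lie 13 CPH genes. This window was centred on a gene of the 45, and the run may go on beyond it. Of these 13 genes 5 passed the limit on counts, and all of those were highest in replicate 3, as were 27.6% of the 9327. The rule used these values for 3 of them, so nothing is read from this, and their ratios differed. CPH14 was at 818 TPM in replicate 3, against 82.9 TPM in replicate 1 and 351 TPM in replicate 2, and was kept out of the 45 by its low level in replicate 1. CPH12 was at 77.0 TPM in replicate 3, against 3.26 TPM in replicate 1 and 54.8 TPM in replicate 2, so replicates 3 and 2 were near each other. CPH11, with 37 counts in replicate 3 against 3 and 8 in replicates 1 and 2, fell under the limit on counts. CPH8, next to CPH9 on the other side, was also under this limit. Its level was 4.94 TPM in replicate 3, against 6.88 and 5.69 TPM in replicates 1 and 2.

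**Figure D4:**
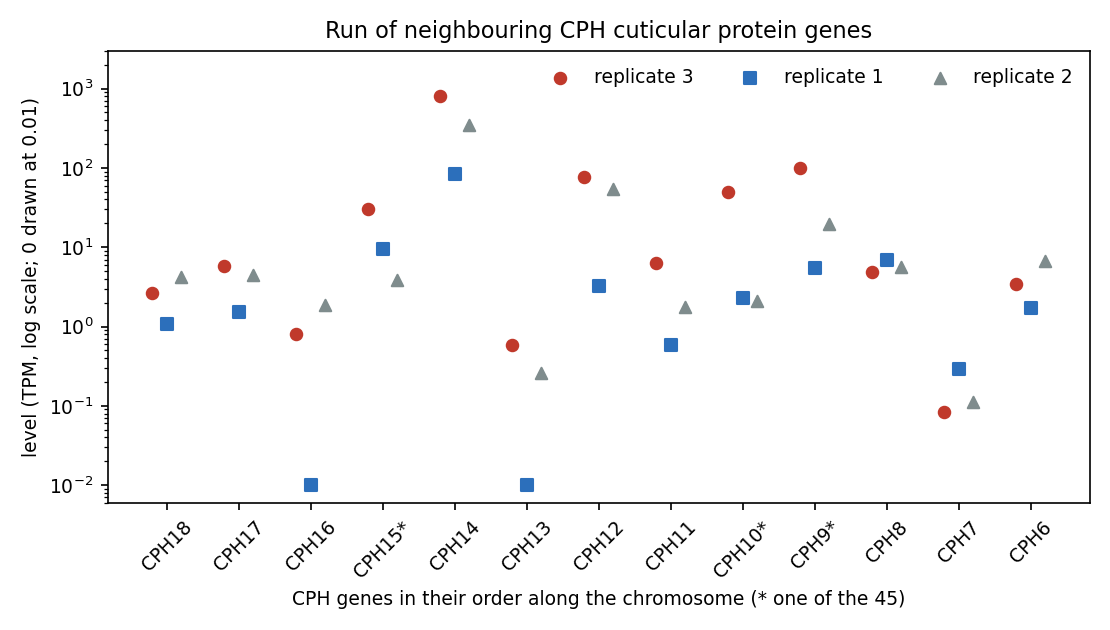
Level in TPM on a log axis of the 13 CPH genes within 10 protein-coding genes of CPH10, in their order along the chromosome. Red circles are replicate 3, blue squares replicate 1 and grey triangles replicate 2, with levels of 0 drawn at 0.01. The genes marked with an asterisk (CPH15, CPH10 and CPH9) are among the 45. CPH8, CPH7 and CPH6 beside them, all under the limit on counts, are not highest in replicate 3.

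PBAN was the only gene of the neuropeptide list among the 45. It encodes the precursor of pheromone biosynthesis activating neuropeptide, which turns on sex pheromone synthesis in adult moths, and of diapause hormone, and is made by neurosecretory cells of the suboesophageal ganglion. PBAN had 265 counts in replicate 3, against 9 in replicate 1 and 9 in replicate 2. Its level was 29.999 TPM in replicate 3, against 1.17 TPM in replicate 1 and 1.34 TPM in replicate 2. The ratio was 24.5 to replicate 1 (95% counting interval 12.7 to 54.1) and 22.1 to replicate 2 (11.5 to 48.9).

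The other peptide hormone genes did not share this gap. Of 30 matched neuropeptide and peptide hormone genes other than bombyxins, a list chosen after their values were seen, 24 passed the limit on counts, and their median ratio was 0.931. Crz, which encodes corazonin, was at 248 TPM in replicate 3, against 304 TPM in replicate 1 and 270.1 TPM in replicate 2. Without PBAN the other 23 genes had ratios to the mean of the others between 0.663 and 1.31.

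Hox genes, which mark segments along the body, were looked at after PBAN had been seen. Scr, which in insects marks the labial and first thoracic segments, had 54 counts in replicate 3, against 0 in replicate 1 and 2 in replicate 2. With the 3-count limit for replicate 1 taken per library, Scr was at least 14.9-fold higher in replicate 3 than in replicate 1. Against replicate 2 the ratio was 20.3, with a 95% counting interval of 5.35 to 172. Its mean count was under 50, so Scr was not among the 45. Dfd, which marks the mandibular and maxillary segments just ahead, was at 3.42 TPM in replicate 3, against 2.77 TPM in replicate 1 and 3.67 TPM in replicate 2. Ubx and Abd-b, of more posterior segments, had at most 2 counts in any library and abd-A had 0 in all. PBAN and Scr were high in the same library, Dfd was not, and the part of suboesophageal ganglion tissue in the result was not tested.

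Of the 19 genes among the 45 with a descriptive symbol, 4 encode enzymes of detoxification and ester cleavage. These were 2 of 10 carboxylesterase, 1 of 24 cytochrome P450 and 1 of 14 glutathione transferase genes that passed the limit on counts. The share was 0.482% over all genes, and 19 of 955 over those with a descriptive symbol. Nothing is read from these counts, since the rule used these values. The carboxylesterase gene ie1 was at 14.5 TPM in replicate 3, against 0.463 TPM in replicate 1 and 0.635 TPM in replicate 2, and its ratio to the higher of them was 22.6. CCE-un1, a carboxyl/cholinesterase gene, was at 84.9 TPM in replicate 3, against 38.0 TPM in replicate 1 and 33.9 TPM in replicate 2. Cyp332a1, a cytochrome P450 gene, was at 10.1 TPM in replicate 3, against 3.01 TPM in replicate 1 and 3.88 TPM in replicate 2. GSTe1, an epsilon-class glutathione transferase gene, was at 14.9 TPM in replicate 3, against 6.23 TPM in replicate 1 and 6.39 TPM in replicate 2, and it left the set when 1 CPM was added to every value. Median ratios to the mean of the others were 1.20 for carboxylesterase, 1.03 for cytochrome P450 and 1.03 for glutathione transferase genes, all lists chosen after the values were seen. On CPM summed over the 24 cytochrome P450 genes the ratio was 2.24, with Cyp4g25 at 21774 TPM in replicate 3, against 57.4 TPM in replicate 1 and 17071 TPM in replicate 2.

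Of the named genes in none of these groups, Gata-beta, a zinc finger transcription factor of the GATA family, was at 3.96 TPM in replicate 3, against 0.991 TPM in replicate 1 and 1.26 TPM in replicate 2. Its counts were 166 in replicate 3, against 36 and 40 in replicates 1 and 2. The gene an-0128 was at 249 TPM in replicate 3, against 31.0 TPM in replicate 1 and 100.6 TPM in replicate 2.

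The other 26 of the 45 had only a locus number in the reference, and 8 of them were among the 12 genes with the highest ratio. Besides LOC692643 and LOC101742903, these were LOC101736139, LOC692598, LOC101740534, LOC101742389, LOC101746461 and LOC101737755. LOC101736139 had 254 counts in replicate 3, against 14 and 12 in replicates 1 and 2, and its ratio to the higher of them was 15.1. LOC692598 was at 35.9 TPM in replicate 3, against 2.05 TPM in replicate 1 and 3.28 TPM in replicate 2. LOC101746461 was at 75.6 TPM in replicate 3, against 7.21 TPM in replicate 1 and 11.9 TPM in replicate 2. In all 3 of these genes replicate 3 was alone, with replicates 1 and 2 within 1.6 times of each other.

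LOC692743, which the reference does not class as protein-coding, had the most counts of the 45. It had 17938 counts in replicate 3, against 5338 in replicate 1 and 3626 in replicate 2. These were 31.7% of the counts of the 45 genes in replicate 3, against 49.7% in replicate 1 and 34.8% in replicate 2, so that without it the 45 took 0.162% of the counts in replicate 3, against 0.0272% and 0.0380% in replicates 1 and 2. The gene length implied by its counts and TPM was 9841 bases, while the reference gives it a span of 606 bases. The implied length of PPO1 was 6670 bases, within its span of 14139 bases. Levels in TPM of LOC692743 therefore rest on a gene model other than the one in the reference, and its ratio between libraries does not depend on that length.

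The remaining locus numbers had smaller gaps. LOC101737960, LOC101741244, LOC101735393, LOC101742744, LOC101745899 and LOC101737467 had ratios to the higher of the others between 3.32 and 4.78. LOC105842669, LOC110385485, LOC101739113, LOC101742225, LOC101738421, LOC101739363, LOC100329149, LOC101744356 and LOC100313953 lay between 2.15 and 2.76, above LOC101737880 and LOC101743112. The highest level among these 17 was 34.5 TPM, for LOC101739363 in replicate 3, against 4.36 TPM in replicate 1 and 14.6 TPM in replicate 2.

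Replicates 1 and 2, which the rule compares only loosely, were within 1.5 times of each other for 28 of the 45 genes (62.2%), against 91.8% of the 9327. The 45 had lower medians in these libraries, 3.31 and 4.47 TPM against 36.9 and 37.8 TPM. Counting error is larger at low counts, and its part in this difference was not tested. In 13 genes replicate 2 was more than 1.5 times higher than replicate 1, most in CPH9, LOC101739363, an-0128 and 6tox (3.01 to 3.39 times). In 4 genes, CPH15, LOC101737755, CPH31 and LOC101742389, replicate 1 was the higher by 1.51 to 2.53 times. The condition on replicate 1 kept out 8 genes with a ratio of at least 2, and 1 of these is not reported here. The other 7 were LOC101740888, LOC778525, glv4-like, LOC105842464, Leb3, CPH14 and LOC119629181. LOC101740888 was the most extreme, with 1789 counts in replicate 3, against 3 in replicate 1 and 18 in replicate 2. Leb3, a lebocin antimicrobial peptide gene, had 498 counts in replicate 3, against 9 and 155 in replicates 1 and 2.

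Some features that the rule did not use were also compared. Of the 45 genes 44 were protein-coding, and 19 (42.2%) had a descriptive symbol, against 10.2% of the 9327. The median gene length implied by counts and TPM was 1619 bases for the 45 and 2567 bases for the 9327. The reference places the 45 on 21 chromosomes. In 3 pairs the genes are direct protein-coding neighbours that do not overlap: CPH9 and CPH10, PPO1 and LOC101742744, and LOC101742225 and LOC101744356. LOC101742744 was at 15.3 TPM in replicate 3, against 3.40 TPM in replicate 1 and 4.12 TPM in replicate 2. LOC101742225 and LOC101744356 had like ratios, 3.10 and 2.74 to replicate 1 and 2.42 and 2.21 to replicate 2.

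Markers of nerve cells and glia had ratios of replicate 3 to the mean of the others near 1. The 5 neuron markers had a median ratio of 1.01 (0.951 to 1.11) and the 4 glia markers of 0.998 (0.987 to 1.05). Elav was at 39.7 TPM in replicate 3, against 42.8 TPM in replicate 1 and 38.4 TPM in replicate 2. The glutamate transporter gene EAAT-1 was at 158 TPM in replicate 3, against 159 TPM in replicate 1 and 152 TPM in replicate 2. Ribosomal protein genes had a median of 0.889 over 75 genes, cell cycle genes 0.961 over 6 and heat shock genes 1.00 over 10. Among these Hsp70 was below 0.5 times both others, at 2.77 TPM in replicate 3, against 10.4 TPM in replicate 1 and 6.87 TPM in replicate 2.

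Muscle markers were lowest in replicate 3 on the summed level, at 4764 TPM, against 5069 TPM in replicate 1 and 10136 TPM in replicate 2, and their median ratio was 0.595 over 5 genes. The 10 fat body and hemolymph markers summed to 563 TPM in replicate 3, against 468 TPM in replicate 1 and 485 TPM in replicate 2. The list planned for trachea was dominated by Cyp4g25, whose values are given above, while trh and Btl had ratios of 1.07 to 1.14 to the mean of the others. Whether Cyp4g25 marks tracheae in these libraries was not tested. Midgut markers summed to 1.32 TPM in replicate 3, against 0.481 and 2.63 TPM in replicates 1 and 2, and silk gland markers to 0.662 TPM, against 0.471 and 0.927 TPM. Endocrine gland markers summed to 69.2 TPM in replicate 3, against 55.8 and 65.3 TPM in replicates 1 and 2. These lists hold at most 5 genes each that passed the limit on counts, and the midgut and silk gland lists 0, so that 0 among the 45 says nothing of these tissues at 0.482% of all genes.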

How the data were processed

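Trim Galore, HISAT2 and featureCounts were used, per the submitters' processing notes. Not given in the sources used here are the strand setting, the build and annotation, and what version and role each tool had. Per gene, the authors deposited raw counts (whole numbers) and TPM, in which each library sums to 1000000. CPM was computed here from the column sums of the counts. Identifiers were looked up in RefSeq genes of ASM3026992v2 (14946 identifiers matched, 2126 did not), by their number also where stray letters followed it, as for NimB. This table gave names, classes, spans and neighbours, and none of its coordinates is printed. Gene length was taken from the ratio of counts to TPM, with the constant set by the commonest ratio to the reference span; it then equalled the span within 1 base for 655 of 13056 genes and exceeded it by more than that for 440.

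The genes and lists were chosen with earlier results of these data known. Lists were matched by gene symbol. None of the 26 genes of the 45 with only a locus number was in a list, so counts by gene class leave them out. Where such counts stand beside 0.482% of all genes, the share among genes with a descriptive symbol was higher, at 19 of 955. Named are the 12 of the 45 with the highest ratio, the 12 with the highest TPM in replicate 3, those with a descriptive symbol (up to 30), those in a list, the 3 closest on each side of the threshold, and defining markers. Other genes named were chosen after their values were seen, and the melanization, Hox, neuropeptide and enzyme lists were added after the data were seen. The planned hemocyte marker Cop was dropped, since its synonym marks an opsin, and Hml and lozenge were not matched. No p-values are given, because the same counts chose the genes. Planned searches of promoters and proteins were not run, since no sequences were used here. The selection was tested on simulated data that hold counting error only. They lack other differences between libraries, so that run says nothing of the 45 genes. Alternative scalings were TMM from edgeR 4.0.16 and size factors from DESeq2 1.42.0 (R 4.3.3); other steps used Python 3.11.15, NumPy 2.4.6, pandas 2.3.3 and SciPy 1.17.1. Totals of 17935488 to 23895452 counts per library set the precision, and intervals cover counting error only. 1 gene that the rule leaves out is not reported here.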

Additional observations from a re-analysis of the deposited data

How the results depend on the processing

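The number of genes that met the rule was 45, with 46 under TMM scaling, DESeq2 size factors or deposited TPM, where Scr-c entered and all 45 remained. It was 42 with a pseudocount of 1 CPM, of which 38 were among the 45; GSTe1, LOC101743112 and LOC101737880 were among 7 lost, and CPH14 among 4 gained. It was 52 without the condition on replicate 1. It was 76 at a 1.5-fold threshold and 25 at 3-fold, 94 with a mean count of at least 10, 28 with at least 100, and 754 with no limit on counts; PBAN, CPH10, CPH15, CPH1 and Gata-beta were among the 17 lost at 100. Leaving out 1 of the replicates 1 and 2 gave 65 to 353 genes, with 353 without replicate 2 and 65 without replicate 1, and the set cannot be formed without replicate 3. The median ratio of the 45 to the mean of the others lay between 3.37 and 3.84 under the scaling and pseudocount alternatives, and between 3.59 and 4.78 when 1 of the other libraries was left out. Of 180 alternative ratios of 30 named genes, 41 left their counting interval; their direction is fixed by the rule. CPM was also summed over the genes of a list that passed the limit on counts, in place of the list median. Replicate 3 over the mean of the others was then 2.60 for hemocyte genes (median 3.45), 2.50 for the trachea list (1.14) and 2.24 for cytochrome P450 (1.03). It was 1.15 for fat body (1.27) and 1.10 for endocrine gland (1.02). With all genes that had a count, the median was 1.59 for CPH genes (3.56) and 1.44 for fat body, and DESeq2 size factors gave 1.03 for endocrine gland. The causes of these differences were not tested. No paired analysis was possible because the libraries form 1 group. Genes with few counts are limited by depth, as their intervals show.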

Other observations

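Under the limit on counts, 49 further genes with a mean count of 10 to 50 met the other conditions, and named ones among them were looked at after their values were seen. They included 3 CPR cuticular protein genes, of 135 matched. The share over all genes with such counts was not computed, so nothing is read from these numbers. CPR13 had 49 counts in replicate 3, against 0 in replicate 1 and 0 in replicate 2. CPR54 had 72 counts in replicate 3, against 28 and 15 in replicates 1 and 2, and CPR143 had 24, against 3 and 7. Sp1, a storage protein gene of fat body, had 25 counts in replicate 3, against 3 in replicate 1 and 4 in replicate 2. LOC101746512, LOC101741814 and LOC101746923 had 69, 68 and 96 counts in replicate 3, against 0 in both other libraries. At these counts a single library decides each ratio.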
